A study of Talpa occidentalis with 2 samples.

Results

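Vision needs a lens that stays clear and photoreceptors that turn light into a change of membrane voltage, and this account describes how the genes for both stand in the gene annotation deposited for the Iberian mole, Talpa occidentalis, a burrowing mammal with very small eyes. The 40 genes were taken from a list of symbols, of which 6 encode opsins or related retinal-binding receptors, 17 encode parts of rod and cone transduction, 5 belong to the visual cycle or to photoreceptor transcription, and 12 encode lens proteins. A gene counted as present when the annotation of build talOcc3 held a gene model under its symbol, with copy and confidence marks removed. By that rule 29 of the 40 had a model, among 16075 symbols in all. The rule uses symbols and no measured value, although the list was drawn up with earlier results of these data known.

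The series itself is a 4C-seq experiment (circular chromosome conformation capture), in which fixed and religated chromatin reports the DNA fragments that lie near a chosen viewpoint. It holds 1 forebrain library and 1 hindlimb library from wild-type mole embryos of embryonic day 15, with the viewpoint at the FGF9 transcription start in both. The annotation has no column for either library, contact values were not analysed here, and sequencing depth is unknown, so no comparison between tissues was made and the label of neither tissue was checked against marker genes. Each value below belongs to 1 assembled genome without replicates.

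In a photoreceptor, light changes the shape of retinal bound to an opsin, which activates the G protein transducin and through it a cGMP phosphodiesterase. The fall in cGMP closes cyclic nucleotide-gated channels, and a kinase, arrestins and calcium sensors then end the response, while enzymes and transporters of the visual cycle renew the retinal. The lens gets its clarity from densely packed crystallins, from a beaded cytoskeleton and from membrane proteins of the fibre cells. Subterranean mammals are known for reduced eyes, but a symbol without a model can also reflect the assembly, the naming or the annotation, and alone it is no evidence that a gene was lost.

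Models were found for 5 of 6 opsins, 15 of 17 transduction genes, 4 of 5 visual cycle and transcription genes and 5 of 12 lens genes. The symbols without a model were OPN3, PDE6B, GRK1, RBP3, CRYAA, CRYBA4, CRYBB1, CRYBB3, CRYGS, LIM2 and MIP, of which the last 7 are lens genes. RefSeq, whose gene table was made on the later assembly MPIMG_talOcc4v2.1, lists 32 of the 40 symbols, all as protein-coding, and 28 of these 32 had a deposited model. That share, 87.5%, equals the 87.5% found over all 15999 protein-coding symbols of RefSeq, but it was not even over the classes. A model was found for 5 of 5 opsins listed in RefSeq, 15 of 16 transduction genes, 4 of 4 visual cycle and transcription genes and 4 of 7 lens genes, a difference that was not tested. PDE6B, CRYBB1, CRYGS and LIM2 were listed in RefSeq alone, and CRYBB2 had a deposited model but no RefSeq symbol. The other 7 symbols were found in neither table as used here.

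Most of the models found were short beside the median of all symbols. Of several models of a symbol, that with the highest deposited score was used. The 29 chosen models had a median of 4 coding exons and 816 coding bases, against 8 coding exons and 1311 coding bases over all symbols. Up to 3 coding exons were present in 12 of 29 members (41.4%), against 21.8% of all symbols. Coding length was below the median of all symbols in 22 of 29 (75.9%), where that median by definition parts all symbols into equal shares. Whether a short model is incomplete was not tested, since full target lengths are not recorded. A chosen model with 1 coding exon occurred in 0 of 29 members, against 8.64% of all symbols. The coding length was a multiple of 3 in 28 of 29 members (96.6%), against 93.2% of all symbols, and the exception was CNGA1.

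**Figure D1:**
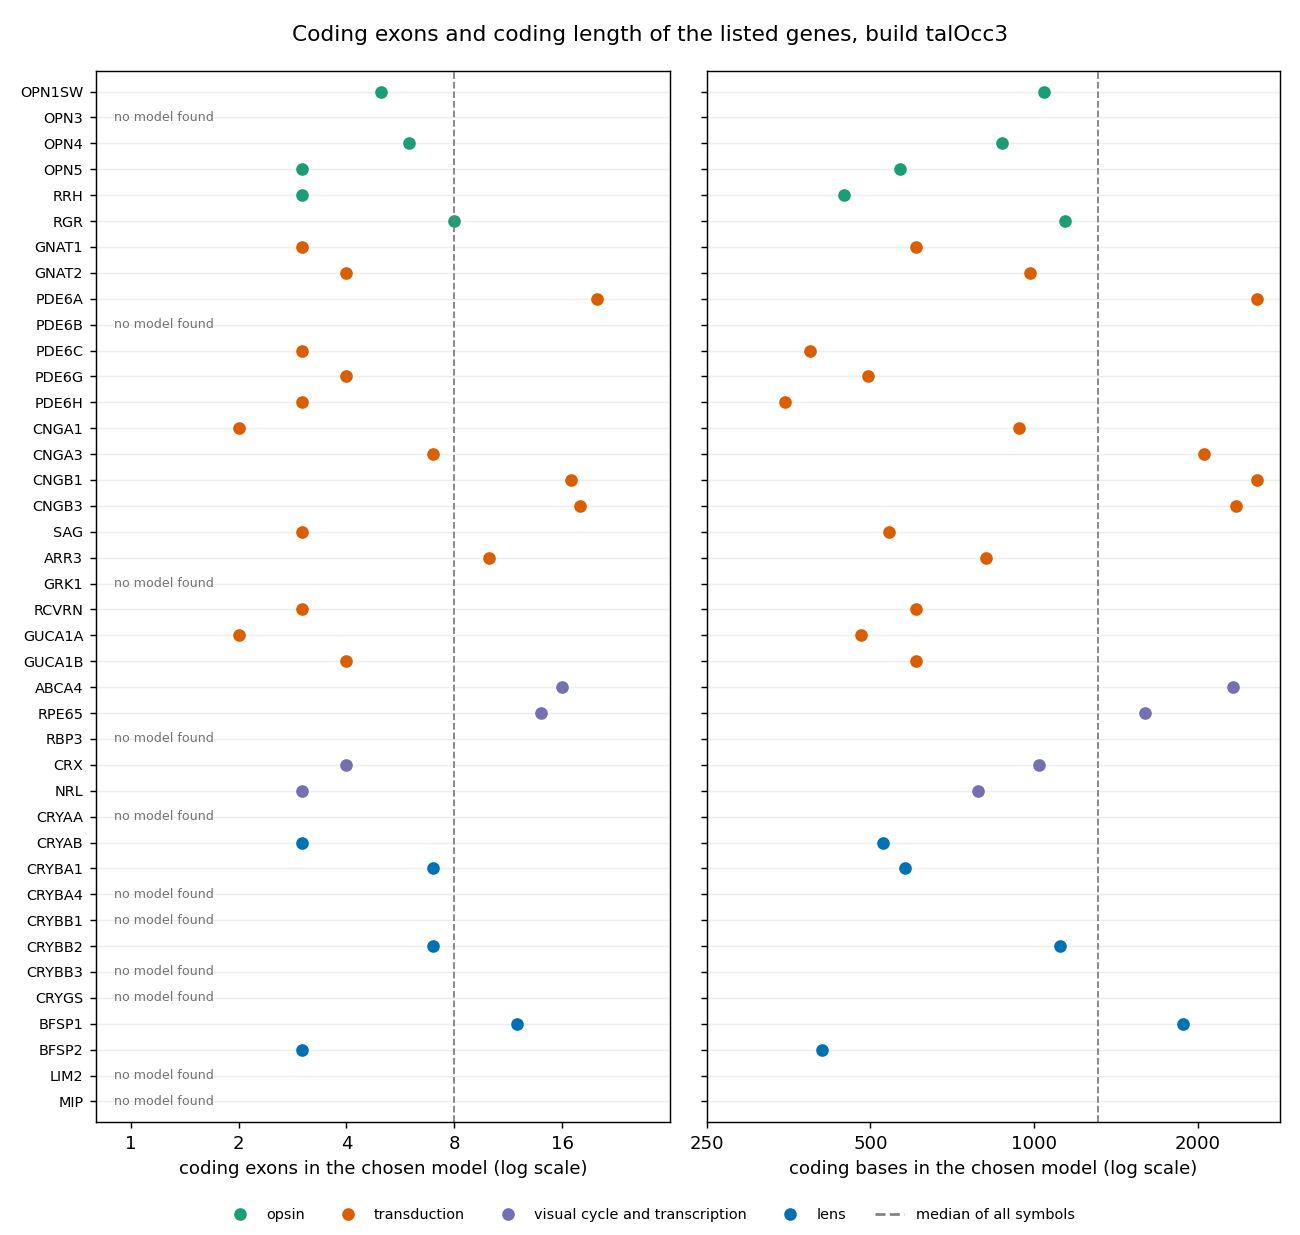
Coding exons (left, log scale) and coding bases (right, log scale) of the chosen model of each of the 40 listed genes, coloured by class, with the median of all symbols as a dashed line (8 exons, 1311 bases). The models range from 2 exons to 20, 22 of 29 lie below the median coding length, and 11 symbols have no model.

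Each model is recorded with the part of a named target transcript that it matches, so that the extent of a match can be read although the full length of the target is not recorded. Only the ends of a match are given. Matched bases are therefore those between its ends, and some of them may have no partner in the target. Over all symbols, matches began at a median target base of 285, with a 95th percentile of 1290. Where coding begins in a target is not recorded, so a late start alone does not tell whether coding bases are missing. Among the opsins, OPN1SW, which encodes the short-wave cone pigment, had the longest match. Scaffold 5 carried it on the minus strand between 57935776 and 57938768, in 5 coding exons of 346, 169, 166, 240 and 120 bases. Of its 1041 coding bases, 1031 matched the target, from base 15 to base 1045, and 8 bases at the 3′ end and 2 at the 5′ end did not. The deposited score per matched base was 1.33, which 59.6% of symbols equalled or fell below. The model was thus matched nearly to both of its own ends.

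The models of the non-visual opsins OPN4 and OPN5 were shorter. OPN4 encodes melanopsin, the pigment of intrinsically photosensitive retinal ganglion cells. Its model on scaffold 11 from 32785389 to 32788998 had 6 coding exons and 873 coding bases, and 726 model bases were set against only 568 target bases, from 290 to 857. That excess of 158 model bases was equalled or undercut by 97.0% of symbols. The next model, LDB3, began 20 bases beyond the end of OPN4. OPN5, which encodes the ultraviolet-sensitive neuropsin, had 3 coding exons of 261, 242 and 64 bases on scaffold 7 from 483617 to 498678. Its match began at target base 526 and ran for 562 bases, with a score per matched base of 1.51 that was the highest of the 29 members.

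RRH and RGR encode retinal-binding receptors of the retinal pigment epithelium and Müller cells. RRH had 3 coding exons and 447 coding bases on scaffold 3 from 82965306 to 82967421, with a match to target bases 143 to 582. RGR, on scaffold 11 from 31070937 to 31081611, had 8 coding exons and 1140 coding bases. Its match covered the first 870 model bases and target bases 39 to 911, and the remaining 270 bases, nearly all of the final exon of 271 bases, lay outside it. RGR and OPN4 lay on the same strand with starts 1.71 Mb apart and 3 models between them.

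The transducin alpha subunits are encoded by GNAT1 in rods and GNAT2 in cones. GNAT1 lay on scaffold 12 from 34904068 to 34904867 and had coding exons of 305, 142 and 159 bases, 606 in all. GNAT2 lay on scaffold 21 from 34267104 to 34270309 and had coding exons of 573, 107, 142 and 159 bases, 981 in all. The final exons of both had equal lengths, 142 and then 159 bases, a succession found in 3 of 16075 symbols, of which the third was TMEM128. The models were longer than the parts of the targets they matched, with 980 bases of GNAT2 set against 461 target bases and 504 bases of GNAT1 against 430. The excess of 519 bases in GNAT2 was equalled or undercut by 99.1% of symbols, and the first exon of 573 bases alone exceeded the whole matched part of the target.

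The phosphodiesterase is built from catalytic subunits (PDE6A and PDE6B in rods, PDE6C in cones) and inhibitory ones (PDE6G in rods, PDE6H in cones). PDE6A had the most coding exons of any member, 20, with 2565 coding bases over 93.2 kb of scaffold 3 from 45101388 to 45194609. Its match ran for 2359 bases, from target base 121 to 2479, and the last 206 model bases lay outside it. The cone counterpart PDE6C was represented by 3 coding exons, 387 bases in all, on scaffold 11 from 38744670 to 38746072. It matched 364 target bases, from 640 to 1003, at a score per matched base of 1.40 against 1.37 in PDE6A. The PDE6C model was therefore short but not weakly matched where it existed.

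Both inhibitory subunits carried coding bases beyond their match. PDE6G on scaffold 28 from 24563572 to 24564631 had 495 coding bases of which 54.9% matched, and PDE6H on scaffold 31 from 12530322 to 12532003 had 348 of which 50.6% matched. A matched share as small or smaller was found in 7.73% of symbols for PDE6G and 6.05% for PDE6H. In PDE6H the unmatched 172 bases all lay at the 5′ end. Both models held an exon of 41 bases, a length that 1.51% of symbols also have.

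The rod channel consists of CNGA1 and CNGB1 subunits and the cone channel of CNGA3 and CNGB3. CNGB1, on scaffold 36 from 7115733 to 7146894, had 17 coding exons and 2568 coding bases, and CNGB3, on scaffold 44 from 5628017 to 5749516, had 18 coding exons and 2346 coding bases. Exons 5 to 16 of each had the same lengths in the same order, 153, 209, 51, 87, 65, 123, 142, 160, 98, 84, 119 and 147 bases. Among all 16075 symbols, these 12 successive lengths were found in CNGB1 and CNGB3 only. The flanking exons differed, 361, 163, 108 and 158 bases before the run in CNGB1 against 111, 82, 127 and 155 bases in CNGB3. Introns did not follow the exons, since the CNGB1 model spanned 31.2 kb and that of CNGB3 122 kb.

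**Figure D2:**
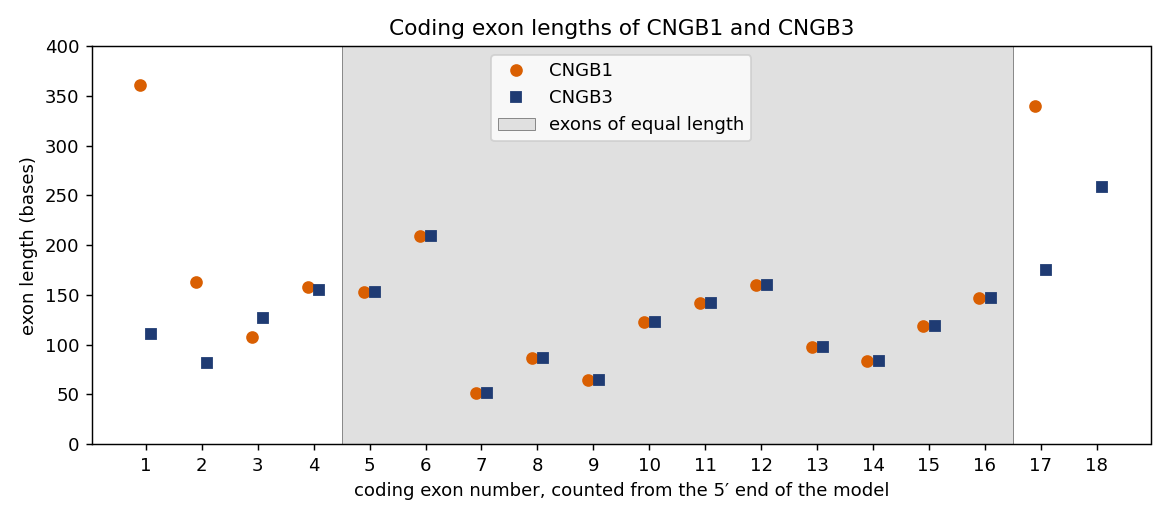
Length of each coding exon in bases (vertical axis) by its number from the 5′ end (horizontal axis) in CNGB1 (circles, 17 exons) and CNGB3 (squares, 18 exons). Within the shaded run from exon 5 to exon 16 the 12 lengths coincide, while the exons on either side differ.

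CNGA3 had 7 coding exons on scaffold 9 from 38803737 to 38826336, and all of its 2049 coding bases matched, from target base 400 to 2448. Its exons included one of 12 bases and a final one of 1412. CNGA1 had only 2, of 107 and 830 bases, on scaffold 10 from 37847368 to 37849563. Its 937 coding bases all matched, from target base 906 to 1842, but left a remainder of 1 after division by 3. A second CNGA1 model carried the low confidence mark and lay on the opposite strand, 215 bases away, with 243 coding bases in 2 exons and no recorded target. CNGB1 also had a second model, 9.52 kb upstream on the same strand, with 9 coding exons and 1515 coding bases. It had a score of 345 against 2755 for the chosen model, and only 39.1% of its coding bases matched. The CNGB1 models were aligned to different target transcripts, so their target coordinates do not tell whether they cover separate parts of the gene.

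Arrestins bind the activated pigment and end its signalling. SAG, the rod arrestin, had 3 coding exons and 540 coding bases on scaffold 23 from 35669921 to 35673732, and 303 target bases matched, from 521 to 823. ARR3, the cone arrestin, had 10 coding exons and 816 coding bases on scaffold 88 from 130031 to 157718. Its score of 153 over 560 target bases gave 0.273 per matched base, the lowest of the 29 members, and 0.778% of symbols had as low a value or lower. ARR3 was also the only member on a scaffold whose annotation ended before 1 Mb. Its model began 472 bases after the end of P2RY4, and PDZD11 followed, the same neighbours as in RefSeq.

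Calcium sensors tie the recovery to the fall in calcium. RCVRN encodes recoverin, which restrains the opsin kinase, and had 3 coding exons of 381, 112 and 113 bases on scaffold 25 from 18848426 to 18854859, with 96.7% of 606 coding bases matched. GUCA1A and GUCA1B encode activators of the guanylate cyclase that renews cGMP. They were the only members with starts within 100 kb of each other, tail to tail on scaffold 20 with 3.80 kb and no model between their 3′ ends. GUCA1B, from 34727453 to 34734989, had 4 coding exons and matched over all of its 606 coding bases. GUCA1A, from 34738787 to 34743199, had 2 coding exons of 201 and 279 bases and matched target bases 1046 to 1397. A model with 1 coding exon, GUCA1A_copy2, stood 9.27 kb upstream on the same strand from 34752469 to 34752816 and matched bases 216 to 538 of the same target. The 507 target bases between these matches were covered by neither.

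ABCA4, the retinal transporter of photoreceptor discs, was the member with most models. Its 4 models followed each other along scaffold 21 between 23851002 and 23965600, all on the minus strand, 115 kb in all, with no other model between. In the direction of transcription, ABCA4_copy2 matched target bases 285 to 1659, ABCA4 matched 1770 to 4300, ABCA4_copy4 matched 4329 to 5300 and ABCA4_copy3 matched 5301 to 6490. The 4 matches named the same target and did not overlap. By extent, the matches covered 6068 of the 6206 bases between the first and the last, 97.8%. This share is an upper limit, since the model named ABCA4 set 2325 model bases against 2531 target bases. Together the 4 models held 45 coding exons and 6210 coding bases. The step from ABCA4 to ABCA4_copy4 measured 28 bases on the scaffold and 28 on the target, and that from ABCA4_copy4 to ABCA4_copy3 1536 bases on the scaffold and 0 on the target. As laid out in the annotation, the order of the pieces on the scaffold followed their order in the target.

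**Figure D3:**
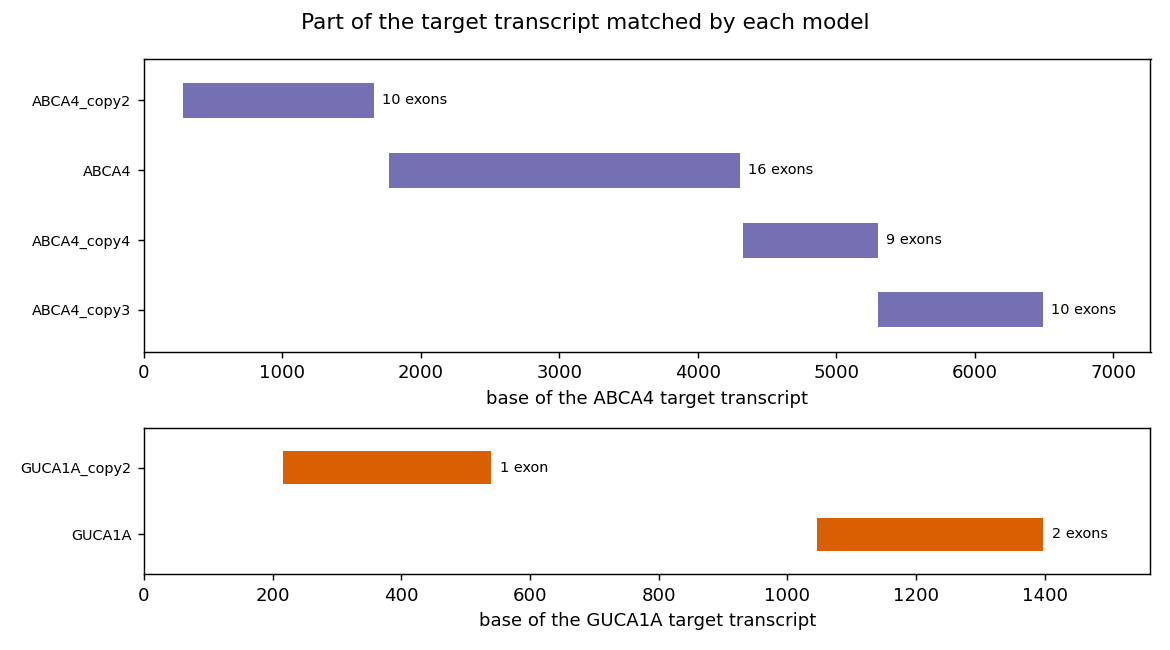
Bases of the target transcript (horizontal axis) matched by each model of ABCA4 (top) and GUCA1A (bottom), with models listed in the direction of transcription and labelled with their coding exons. The ABCA4 pieces follow each other from base 285 to 6490 without overlap, whereas 507 bases separate the GUCA1A matches.

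In all, 4 of 29 members (13.8%) had at least 2 models, CNGA1, CNGB1, GUCA1A and ABCA4, against 14.6% of all symbols. When models that match separate parts of 1 target counted as 1, ABCA4 and GUCA1A each became 1 model and 2 members kept at least 2. No opsin and no lens gene had an extra model.

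The other visual cycle and transcription genes had 1 model each. RPE65, the isomerase of the retinal pigment epithelium, had 14 coding exons and 1599 coding bases on scaffold 2 from 48525446 to 48543258. All but 1 of these bases matched the target, from base 55 to 1652, at a score per matched base of 1.46. The homeobox gene CRX, which drives photoreceptor genes, had 4 coding exons of 89, 134, 152 and 648 bases on scaffold 36 from 15707821 to 15713382, and 91.4% of its coding bases matched. NRL, the leucine zipper factor of rod fate, had 3 coding exons of 327, 231 and 231 bases on scaffold 6 from 3698665 to 3701036. Its match, 559 bases long, began after the first 230 model bases.

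Among the lens genes with a model, only CRYAB had a match over its whole coding length with an equal extent of target. It encodes alpha-B crystallin, a small heat shock protein that is also made outside the lens. Its 3 coding exons of 201, 123 and 204 bases occupied scaffold 14 between 11990999 and 11993759 on the minus strand, and 528 coding bases matched 528 target bases. HSPB2, another small heat shock gene, began 724 bases from the 5′ end of CRYAB on the plus strand, so the pair stood head to head.

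Beta crystallins are major structural proteins of the lens. CRYBA1 on scaffold 25 from 9925894 to 9934156 had 7 coding exons of 31, 65, 122, 156, 130, 7 and 68 bases. All but 1 of its 579 coding bases matched, at a score per matched base of 1.03. CRYBB2 on scaffold 27 from 18705270 to 18716373 also had 7 coding exons, with 1116 coding bases, but the last 454 lay outside the match, which began at target base 1179. In RefSeq the place between KIAA1671 and GRK3, the neighbours of the deposited CRYBB2, holds 1 protein-coding gene, which carries no symbol. No exon length was shared between CRYBA1 and CRYBB2.

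BFSP1 and BFSP2 encode filensin and phakinin, the subunits of the beaded filament of lens fibre cells. BFSP1 had 12 coding exons and 1881 coding bases on scaffold 30 from 12491417 to 12521604, including an exon of 2 bases. Its match set 1881 model bases against 1995 target bases and scored 0.574 per matched base, a value that 5.81% of symbols equalled or fell below. BFSP2 had 3 coding exons on scaffold 13 from 40940419 to 40943426, and 276 of its 408 coding bases matched, from target base 705 to 980. The filensin model was thus long with a low score for its length, and the phakinin model short.

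Coding exons of at most 12 bases were present in 4 of 29 members (13.8%), CNGA3, RPE65, CRYBA1 and BFSP1, against 5.85% of all symbols. The shortest exon of RPE65 was its first, with 11 bases. Of these 4, RPE65, CRYBA1 and BFSP1 came from the source named ALN, as did 5 of 29 members (17.2%), against 9.56% of all symbols. Introns shorter than 60 bases occurred in 0 of 29 members, against 1.34% of symbols, and introns shorter than 30 bases in 0 members, against 0% of symbols.

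The match extended over at least 90% of the coding bases in 18 of 29 members (62.1%), against 64.2% of the symbols with a recorded match. GNAT2 is among the 18 although its 980 model bases stand against only 461 target bases. The median score per matched base was 1.26, against 1.25 over all symbols, and 14 of 29 members lay below the all-symbol median. By class it was 1.22 for opsins, 1.27 for transduction genes, 1.29 for visual cycle and transcription genes and 1.03 for lens genes. No source states the formula of the score, so it is read only as a rank among models.

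**Figure D4:**
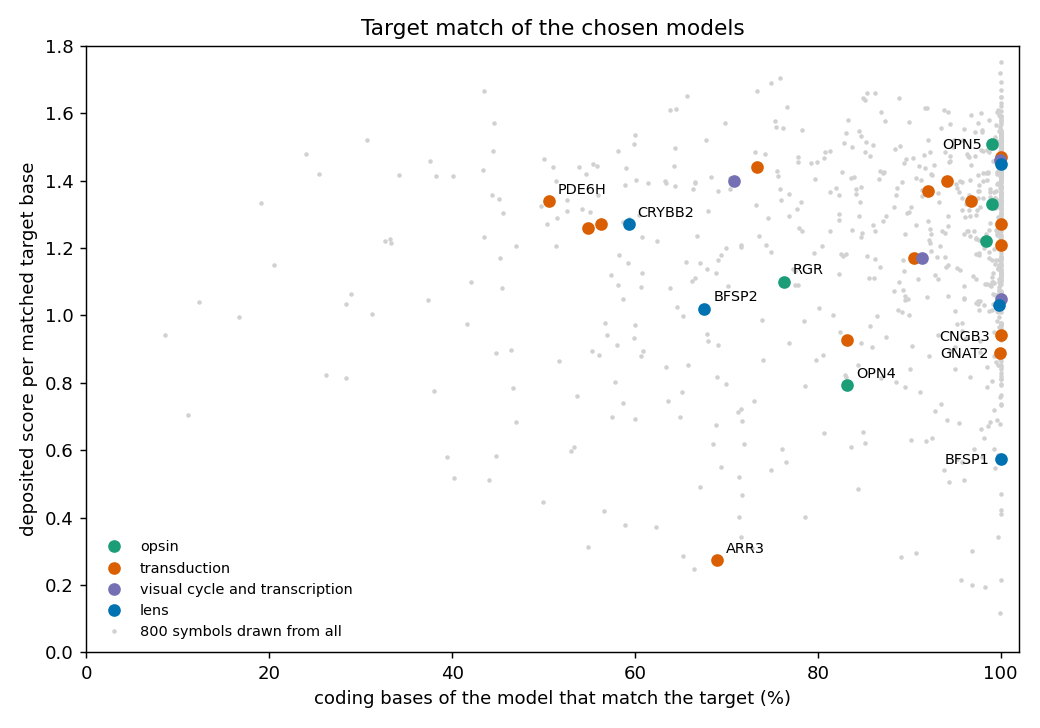
Share of coding bases within the extent of the match (horizontal axis, %) against the deposited score per matched target base (vertical axis). Points are the chosen models of the 29 members, coloured by class, over 800 symbols drawn from all (grey). ARR3 lies lowest at 0.273, BFSP1 follows at 0.574, and PDE6H has the smallest share by extent at 50.6%. GNAT2 stands at 99.9%, although its match sets 980 model bases against 461 target bases.

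For the 11 symbols without a model, the place where each would lie was looked up between neighbouring genes, taken from the RefSeq order or from the human order as known in general. This step was chosen after the missing symbols were known. For 10 of the 11, the neighbours lay on 1 scaffold, and the intervals between their edges held 0 models of any name. One of these is OPN3, whose place may lie outside the intervals looked at, as described below. The intervals differed greatly in length around the median intergenic gap of 16.3 kb. Whether an unannotated gene lies in them was not tested, since no talOcc3 sequence was used here.

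The longest interval belonged to beta crystallins. CRYBB1 and CRYBA4, known as a head-to-head pair in human, are bordered by TPST2 and MN1, whose models on scaffold 27 were separated by 944 kb, from 16913113 to 17856944. Gaps of at least that length made up 0.76% of 20408 intergenic gaps. RefSeq places CRYBB1 between these genes. For CRYGS, which encodes gamma-S crystallin, the gap between DGKG and TBCCD1 on scaffold 4 measured 213 kb, from 31355663 to 31568804, a length reached by 7.35% of gaps. RefSeq places CRYGS there.

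The other lens intervals were near the median. CRYBB3, the partner of CRYBB2 in human, would lie in the 10.3 kb between CRYBB2 and KIAA1671. LIM2, a fibre cell membrane protein, is placed by RefSeq between NKG7 and SIGLEC10, which were 17.5 kb apart on scaffold 36. RefSeq also places the protein-coding gene CUNH19orf84 there, which likewise had no model in this interval. MIP, the lens water channel aquaporin 0 of the fibre cells, would lie in the 11.9 kb between TIMELESS and SPRYD4 on scaffold 34. CRYAA, alpha-A crystallin, was the exception for which no interval could be set. In human it lies between U2AF1 and SIK1, and here the first model of scaffold 56 was named U2AF1L5, from 59172 to 73852, followed by PKNOX1. In RefSeq, the only protein-coding genes or pseudogenes between PKNOX1 and HSF2BP are SIK1, U2AF1 and CBS, named here without regard to direction. Here 37 other models lay between PKNOX1 and HSF2BP, so these wider borders set no interval either.

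Among photoreceptor genes, PDE6B is placed by RefSeq between PIGG and SLC49A3, an older name of which is MFSD7. RefSeq also places ATP5ME between them, and it too had no model in this interval. The models of PIGG and MFSD7 were 32.9 kb apart on scaffold 75, where PIGG was the last model. GRK1, the rhodopsin kinase, would lie in the 26.7 kb between ATP4B and GAS6 on scaffold 67. RBP3, which encodes the retinoid carrier between photoreceptors and pigment epithelium, would lie in the 12.2 kb between ZNF488 and GDF2 on scaffold 11. OPN3, a widely expressed opsin, neighbours KMO, WDR64 and CHML in human. Their models on scaffold 14 stood in the order CHML, WDR64 and KMO, separated by 35.6 kb (CHML and WDR64) and 48.1 kb (WDR64 and KMO). The flank of CHML away from WDR64 was not examined, so the place of OPN3 may lie outside these intervals. RefSeq has 1 pseudogene without a symbol between KMO and WDR64.

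**Figure D5:**
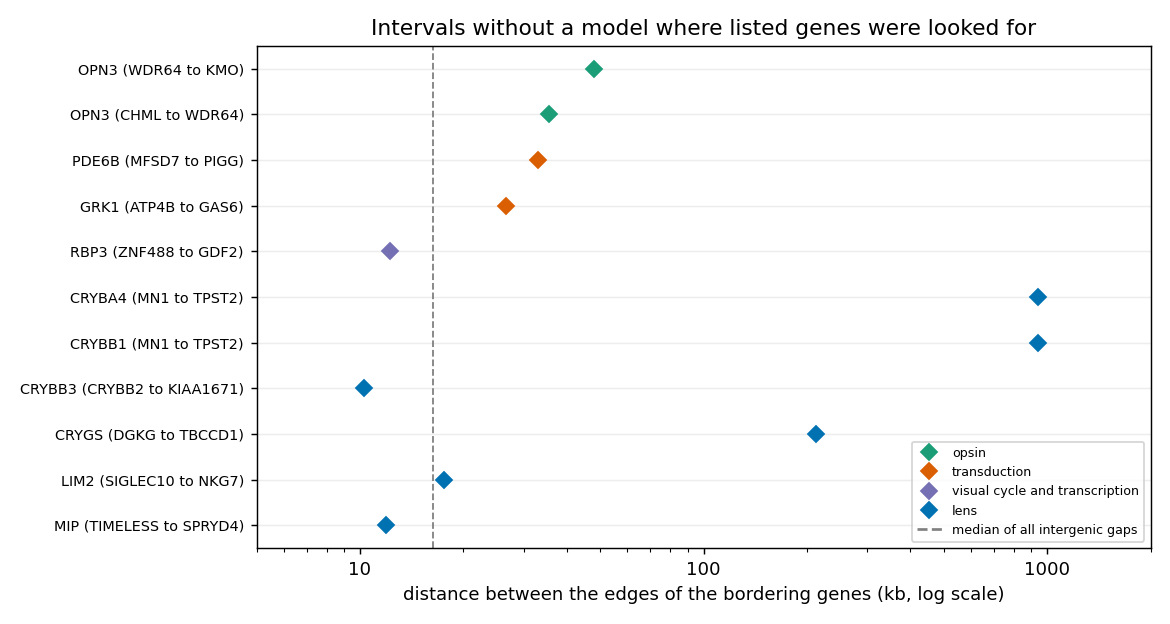
Distance in kb (log scale) between the edges of the genes bordering each interval looked up for a symbol without a model. Colours give the class, and the dashed line gives the median of all intergenic gaps (16.3 kb). The place of OPN3 may lie outside its intervals. CRYBA4 and CRYBB1 share the interval of 944 kb, CRYGS has 213 kb, the other intervals lie between 10.3 kb and 48.1 kb, and none could be set for CRYAA.

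The surroundings of the members that did have a model were compared with RefSeq. For 28 members with a RefSeq symbol, the nearest symbol on both sides was the same in 23 (82.1%), on 1 side in 4 and on neither side in 1, against 56.7% of all symbols with both sides shared. The exception was OPN5, bordered by ADGRF4 and PTCHD4 here. For CRYAB the differing neighbour, C11orf1, is an older name of CFAP68, and with that name matched 24 members shared both sides. The 24 has no share of all symbols beside it, since the 56.7% was found with exact names. The 29 members lay on 22 scaffolds.

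Exon lengths were also compared within families. Among 26 pairs of related members, 2 shared at least 2 successive exon lengths, the GNAT and CNGB pairs described above. Another 6 shared 1 exon length, which unrelated genes also do, and 18 shared none. PDE6A and PDE6C, for example, had in common a 90-base exon, a length present in 7.14% of symbols.

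Further eye genes were read from 3 lists that hold no member of the 40 but share some genes with each other. Of 41 photoreceptor and visual cycle genes, 39 had a model, with a median of 6 coding exons. GNGT2, a cone transducin gamma subunit, and RP1, a protein of the photoreceptor axoneme, had none, and RefSeq lists GNGT2. Genes with at least 2 models included SLC24A1 (2), RDH11 (3) and EYS (8). All 8 EYS models lay on scaffold 7.

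Of 26 further lens genes, 17 had a model. Those without included CRYBA2, CRYGA, CRYGB, CRYGC, CRYGD, CRYGN and the transcription factor genes FOXE3 and SOX1, of which RefSeq lists CRYBA2, FOXE3 and SOX1. CRYZ had 2 models. Counted by family over both lens lists, a grouping chosen after these values were seen, models were found for 1 of 2 alpha crystallins, 2 of 6 beta crystallins and 0 of 6 gamma crystallins. RefSeq lists 1 alpha, 3 beta and 1 gamma crystallin of these, so most of the gamma symbols were found in neither table as used here. All 21 genes of the eye field list, the transcription factors and signals that set up the eye, had 1 model each, and RefSeq lists all 21. Their median score per matched base was 1.49, against 1.33 for the further lens genes and 1.22 for the further photoreceptor genes.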

How the data were processed

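The file read here is the deposited annotation of genes on build talOcc3. Per the file's second column, its models came from EVM, exonerate or ALN, whose versions are not stated. The positions of genes, transcripts and coding exons were used as deposited. Each deposited score belongs to the match between a model and its target transcript, and its formula is not stated.

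Models were read in Python 3.11.15 with numpy 2.4.6. For each symbol the model with the highest score was chosen, and coding length, exons, introns, matched bases and neighbours were computed. Models with a LOC identifier, a model number or only an alignment name carried no symbol. RefSeq names of build MPIMG_talOcc4v2.1 were matched exactly, and its positions served only to order genes. No test was run, since there is 1 annotation without replicates. Members and lists were chosen with earlier results of these data known. The text names all members, their nearest symbols, bordering genes, and genes of the further lists without a model or with at least 2, except some that are not reported here. On simulated data, 200 of 200 planted model numbers, exon structures, target starts and shared exon runs were recovered. The model to be chosen always had the highest score, and planted runs used exon lengths found nowhere else. The simulation therefore checks only the reading of the records. Neighbours, intervals, low confidence marks and models without a target were not simulated. Planned comparisons with RefSeq proteins and synonyms were not made.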

Additional observations from a re-analysis of the deposited data

How the results depend on the processing

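The number of members with a model, 29, was 28 or 29 without models of low confidence, without scaffolds under 1 Mb, without either, or with at least 300 coding bases. The number with at least 2 models, 4, fell to 2 with separate target parts merged and to 1, CNGA1, with models in line on 1 strand merged, an alternative chosen after seeing the data, and was 3 or 4 under the others. These alternatives lower it by construction. Choosing models without a copy mark or with the longest coding sequence moved neither the median exons nor the median coding length, since the chosen model was then the same for all members. Members with both nearest neighbours shared numbered 23, or 24 with older and newer names matched. A looser rule, 1 of the 2 nearest symbols shared on each side, gave 26. Neither 24 nor 26 has a share of all symbols beside it. Member pairs within 1 Mb stayed at 1. No paired analysis was possible because there is 1 library per tissue and no value per library, and no replicate was left out. Comparisons with RefSeq proteins and with synonyms were not run. Precision is limited by the assembly and its gene models.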
